A study of Homo sapiens with 8 samples.

Results

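The collagen genes were taken as every row of the count table whose symbol is COL, a number, A and a single digit, with the transmembrane collagen gene COL17A1 left out. Of the 58302 genes in the table, 43 met this rule, and 23 of them carried enough reads to be tested. RNA had been sequenced from HCT116 p53+/+ cells, an established human colon cancer line that keeps normal p53. The treated group (MANIO) was 4 cultures given 1 µM MANIO, a compound known here only by its code name, and the control group (DMSO) was 4 cultures given the solvent alone; all 8 were collected after 24 hours. The study asked whether the p53 response is engaged in transcription. Both groups are one tumour cell line grown without stroma or a basement membrane, and the submitters call the samples biological replicates without saying how the cultures were separated.

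Collagens are the main structural proteins of the extracellular matrix. Each is a triple helix of chains built on a repeat of 3 residues that opens with glycine, and most types form only when particular partner chains meet in the endoplasmic reticulum. Fibrillar collagens build the fibres of connective tissue, type IV collagens build the sheet of the basement membrane under epithelia, type VI forms beaded filaments, type VII anchors epithelium to the stroma beneath, and the fibril-associated collagens decorate fibres. In the gut most collagen is made by fibroblasts and related cells, and epithelial cells contribute mainly basement membrane and anchoring chains. Of the p53 target genes that check the treatment, CDKN1A, the cell cycle inhibitor p21, averaged 260 ± 24.0 CPM (scaled counts per 1e6 counts) in DMSO and 1402 ± 97.1 in MANIO. MDM2, the ligase that degrades p53, averaged 199 ± 5.99 and 715 ± 52.7 CPM (SD, n = 4 each). Their log2 fold changes were 2.43 and 1.85 (edgeR adjusted p = 3.40e-12 and 6.43e-12).

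Total counts ran from 27945196 to 32509020 per library. Libraries of one group differed from each other by more than counting noise, with a chi-square over degrees of freedom of 3.38 to 22.2. DMSO replicate 1 stood furthest from its group. Its mitochondrial genes took 7.48% of counts, against 4.82% to 5.21% in the other DMSO libraries and 6.70% to 7.62% in the MANIO libraries, and it held the lowest DMSO value for 9 of the 23 tested collagens. The part of the mitochondrial share in the collagen values was not tested. Among the MANIO libraries, replicate 3 was the highest for 14 of the 23 and replicate 4 the lowest for 11. Counts of called collagens without any 1 of the 8 libraries stayed at 16 or 17 higher and 4 lower.

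Most tested collagen genes were higher in the treated cells. In the quasi-likelihood test of edgeR over 15712 genes, called at an adjusted p under 0.05, 17 of the 23 tested collagens rose in MANIO, 4 fell and 2 did not pass. Over all tested genes 54.6% were called, 27.8% higher and 26.8% lower. The median log2 fold change (MANIO over DMSO) was 0.72 over the tested collagens and 0.0043 over all tested genes. The 23 are those expressed enough to test and not the whole family: a gene had to reach the read minimum in at least 4 libraries. COL4A1, COL5A1 and COL5A3 reached it in all 4 MANIO libraries and in 0, 1 and 2 DMSO libraries, so they were tested through the group where they were high. COL26A1 reached it in 4 DMSO and 3 MANIO libraries and COL20A1 in 3 and 1. The 18 collagens that reached it in all 8 libraries comprised 14 that rose and 4 that fell. Treated and control libraries did not overlap for 20 of the 23, with MANIO on top for 16 and DMSO for 4, where 48.3% of all tested genes had groups that did not overlap in either direction. RNA was taken from whole cultures, so a lower value may be less RNA per cell or fewer cells carrying it, and these cannot be told apart.

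**Figure D1:**
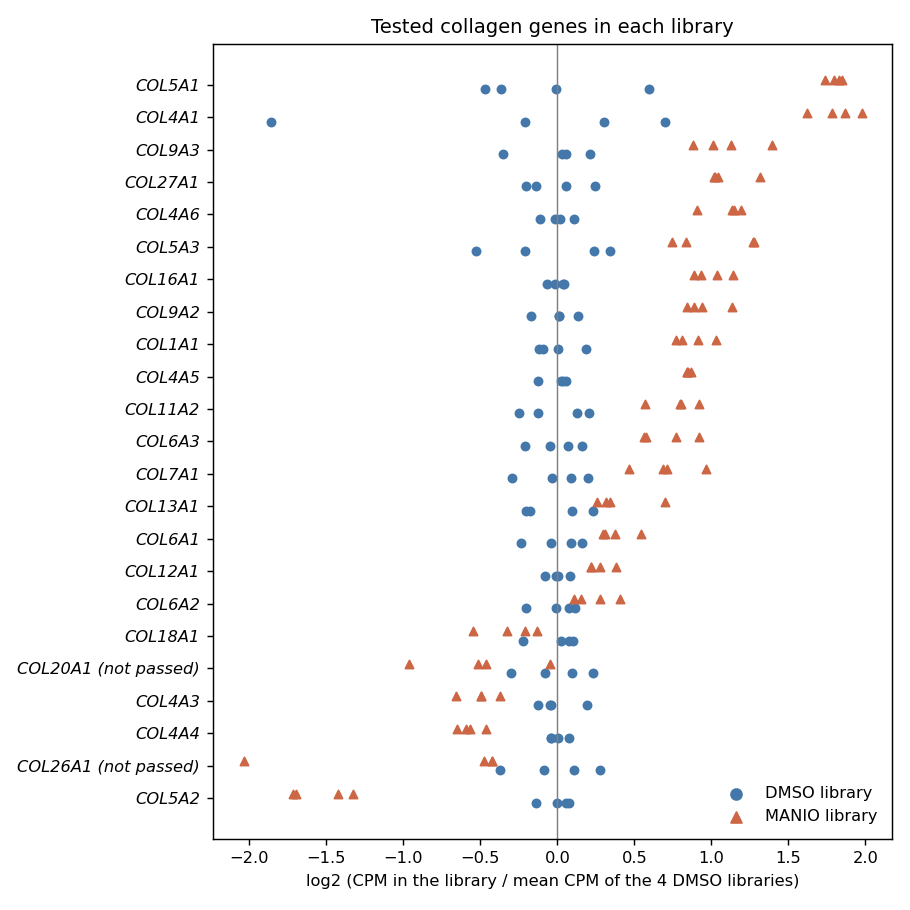
Log2 of each library's CPM over the mean CPM of the 4 DMSO libraries for the 23 tested collagen genes, ordered by fold change; circles are DMSO libraries and triangles MANIO libraries. COL5A2 stands alone at the bottom with all MANIO libraries far below the DMSO libraries, and COL5A1 and COL4A1 stand at the top, with widely spread DMSO values.

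The type IV genes did not move as 1 group. They encode the 6 chains of the basement membrane network and lie as 3 pairs, each pair sharing a short stretch from which the genes are read in opposite directions. The pair on chromosome X rose, the pair on chromosome 2 fell, and of the pair on chromosome 13 only COL4A1 had enough reads to test. COL4A5 (chrX:108439844-108697545) encodes the chain mutated in X-linked Alport syndrome, a hereditary kidney disease, and COL4A6 (chrX:108155607-108439497) its neighbour. COL4A3 (chr2:227164565-227314792) and COL4A4 (chr2:227002711-227164453) encode the chains that join COL4A5 in the network of the kidney filter. Positions are on GRCh38 in GENCODE release 29.

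The stretches between the starts of the 2 pairs that moved in opposite directions are printed so that the pairs can be compared; their part in the change was not tested. They come from RefSeq's promoter windows on GRCh38.p14, are read on the plus strand, and are the longest runs, up to 300 bases, that lie between the starts and that no GENCODE 29 exon covers. The first covers 159 bases (chr2:227164237-227164395) of the 418 between the RefSeq starts of COL4A4 and COL4A3, and lies within the annotated span of COL4A4. The second covers 300 bases (chrX:108439538-108439837) of the 379 between the starts of COL4A6 and COL4A5. Capitals mark CCAAT on either strand (ATTGG is its reverse complement).
COL4A4-COL4A3: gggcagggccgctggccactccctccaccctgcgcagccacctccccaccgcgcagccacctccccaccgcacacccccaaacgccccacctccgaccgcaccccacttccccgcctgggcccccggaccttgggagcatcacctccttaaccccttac
COL4A6-COL4A5: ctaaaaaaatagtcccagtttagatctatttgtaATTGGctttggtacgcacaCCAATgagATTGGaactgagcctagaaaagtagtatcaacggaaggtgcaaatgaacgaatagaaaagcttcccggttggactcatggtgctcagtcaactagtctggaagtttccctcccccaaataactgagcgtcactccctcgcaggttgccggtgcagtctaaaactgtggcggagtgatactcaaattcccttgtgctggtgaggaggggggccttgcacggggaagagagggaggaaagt
The stretch of the falling pair is 73.0% G and C and holds no CCAAT, and that of the rising pair is 48.3% G and C and holds 3. Neither holds GGGCGG on either strand, TATAAA on either strand or the p53 half-site. Such matches describe these letters only. RefSeq windows of 300 bases (250 before and 50 after a start) were found for 18 of the 23 tested collagens, with 24 windows in all. Of the 24 windows 0 held the p53 half-site, 4 TATAAA, 6 CCAAT and 16 GGGCGG, and these windows belonged to 0, 4, 5 and 13 genes. Over all 35116 promoter windows the shares with a match were 6.63%, 11.5%, 34.6% and 45.0% in the same order.

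COL4A5 gave 35.7, 31.4, 35.1 and 34.8 CPM in the DMSO libraries and 61.5, 61.6, 61.5 and 62.4 CPM in the MANIO libraries. The treated cultures were almost identical to each other and all above the controls. The log2 fold change was 0.85 (SE 0.0564, edgeR adjusted p = 1.3e-08), the smallest p among the tested collagens of the rule, which leaves out COL17A1. COL4A6 gave 3.61, 3.53, 3.85 and 3.30 CPM in DMSO and 6.69, 7.90, 8.16 and 7.84 CPM in MANIO. Its groups were also far apart, with a log2 fold change of 1.10 (SE 0.0987, edgeR adjusted p = 3.08e-07).

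COL4A3 gave 11.3, 11.3, 10.6 and 13.3 CPM in DMSO and 7.35, 8.23, 8.23 and 8.95 CPM in MANIO. Every treated culture was below every control, and the log2 fold change was -0.50 (SE 0.0900, edgeR adjusted p = 0.000243). COL4A4 gave 18.4, 17.5, 17.0 and 17.1 CPM in DMSO and 11.6, 11.1, 12.7 and 11.8 CPM in MANIO. Here too the groups did not meet, and the log2 fold change was -0.57 (SE 0.0690, edgeR adjusted p = 6.72e-06). The 2 neighbours thus fell by similar amounts, while their network partner COL4A5 rose.

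COL4A1, which with COL4A2 makes the type IV collagen of most basement membranes, was near the lower limit of measurement. Its reads numbered 3, 6, 5 and 1 in the DMSO libraries and 16, 13, 14 and 14 in the MANIO libraries. In CPM this was 0.129 ± 0.0740 and 0.454 ± 0.0467 (SD, n = 4 each), with a log2 fold change of 1.77 (SE 0.366, edgeR adjusted p = 0.000811). COL4A2 had 1, 3, 1 and 4 reads in DMSO and 6, 5, 12 and 6 in MANIO and was not tested. Both genes of the common network were thus read at a few counts per library, and each had its lowest MANIO count above its highest DMSO count.

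Among the fibrillar collagens the type V genes went opposite ways. Type V collagen is a minor collagen that joins type I fibres and limits their width, and its usual trimer holds COL5A1 and COL5A2 chains. COL5A2 (chr2:189031896-189225312) gave 4.84, 4.16, 4.58 and 4.76 CPM in DMSO and 1.39, 1.83, 1.71 and 1.41 CPM in MANIO. It fell further than any other tested collagen, with a log2 fold change of -1.52 (SE 0.125, edgeR adjusted p = 1.21e-07), or 2.88-fold. COL5A1 (chr9:134641774-134844843) gave 0.372, 0.245, 0.191 and 0.178 CPM in DMSO and 0.855, 0.823, 0.886 and 0.875 CPM in MANIO. Its rise, on 5 to 10 reads per DMSO library and 26 to 28 per MANIO library, had a log2 fold change of 1.80 (SE 0.255, edgeR adjusted p = 2.92e-05). Over all genes with at least 1 read, and so without that minimum, edgeR gave COL5A1 a log2 fold change of 1.78, COL4A1 1.75 and COL5A3 1.02. That fit uses the same counts, so it is no separate support for these genes. COL5A3, a less widespread type V chain, averaged 0.302 ± 0.0806 CPM in DMSO and 0.626 ± 0.121 in MANIO (SD, n = 4 each), a log2 fold change of 1.04 (SE 0.272, edgeR adjusted p = 0.00458).

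COL1A1, one of the 2 chains of type I collagen, the commonest collagen of the body, gave 21.1, 23.0, 21.5 and 26.0 CPM in DMSO and 43.0, 40.1, 46.6 and 38.9 CPM in MANIO. All treated cultures were above all controls, and the log2 fold change was 0.88 (SE 0.0774, edgeR adjusted p = 2.35e-07). Its partner COL1A2 had 0 reads in the 4 DMSO libraries and 3, 0, 1 and 0 in the MANIO libraries. The partner chain was thus barely detected in either condition.

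COL27A1, a fibrillar collagen of cartilage, gave 21.4, 22.4, 25.7 and 29.2 CPM in DMSO and 49.8, 50.2, 61.5 and 50.9 CPM in MANIO. The groups were well separated, at a log2 fold change of 1.11 (SE 0.0966, edgeR adjusted p = 4.10e-07), with MANIO replicate 3 above the other treated cultures. COL11A2, a chain of the type XI collagen of cartilage, ran from 11.5 to 15.8 CPM in DMSO and from 20.4 to 26.0 in MANIO. This rise was smaller, with a log2 fold change of 0.78 (SE 0.0994, edgeR adjusted p = 1.18e-05). The other type XI chain gene, COL11A1, had 1, 1, 1 and 0 reads in DMSO and 6, 9, 5 and 5 in MANIO and was not tested. COL2A1 and COL3A1, the main chains of cartilage and of elastic organs such as vessels, had no more than 5 reads in any library.

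The fibril-associated collagens (FACIT) do not form fibres themselves but attach to them. Of 10 members 5 were tested, and 4 of these rose. COL9A3, a type IX chain, gave 19.7, 25.6, 29.1 and 26.2 CPM in DMSO and 54.9, 50.8, 65.9 and 46.4 CPM in MANIO. The lowest treated culture exceeded the highest control, and the log2 fold change was 1.11 (SE 0.124, edgeR adjusted p = 1.33e-05). Its partner COL9A2 rose as well, from 5.10 to 6.29 CPM in DMSO to 10.3 to 12.6 in MANIO, with a log2 fold change of 0.95 (SE 0.0935, edgeR adjusted p = 7.24e-07). The remaining type IX gene, COL9A1, had 1 read in all 8 libraries together.

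COL16A1, which associates with fibrils and with cell-surface integrins, gave 3.65, 3.49, 3.63 and 3.37 CPM in DMSO and 7.79, 7.26, 6.74 and 6.53 CPM in MANIO. Controls were tightly grouped and the treated mean was 2.00-fold higher, a log2 fold change of 1.00 (SE 0.0955, edgeR adjusted p = 5.44e-07). COL12A1, which binds type I fibrils in tendon and other dense tissue, lay at 77.9 to 87.3 CPM in DMSO and 96.1 to 108 in MANIO, a small but separated rise with a log2 fold change of 0.28 (SE 0.0563, edgeR adjusted p = 0.000704). COL20A1 was read at 6 to 13 counts per library and did not pass, with a log2 fold change of -0.45 (SE 0.289, edgeR adjusted p = 0.230).

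Type VI collagen, whose beaded filaments link the basement membrane to the matrix around cells, is built from COL6A1, COL6A2 and a longer chain, usually COL6A3. COL6A1 gave 88.7, 101, 111 and 116 CPM in DMSO and 136, 129, 152 and 128 CPM in MANIO, with a log2 fold change of 0.38 (SE 0.0798, edgeR adjusted p = 0.000908). COL6A2 gave 91.0, 104, 113 and 111 CPM in DMSO and 127, 117, 139 and 113 CPM in MANIO. Its groups overlapped and its change was the smallest that passed, a log2 fold change of 0.24 (SE 0.0767, edgeR adjusted p = 0.0149). Without MANIO replicate 3, COL6A2 no longer passed (edgeR adjusted p = 0.0569). COL6A3 was far less abundant and rose from 1.81 to 2.34 CPM in DMSO to 3.10 to 3.96 in MANIO (log2 fold change 0.72, SE 0.131, edgeR adjusted p = 0.000291). Its estimate was larger than that of COL6A1, but the ratio of these chains had overlapping groups (exact permutation p = 0.171, adjusted 0.206). The chains that can replace COL6A3, COL6A5 and COL6A6, had 0 reads in all 8 libraries.

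COL7A1, the only chain of the anchoring fibrils that hold epithelium to the stroma, ran from 11.6 to 16.3 CPM in DMSO and from 19.6 to 27.7 in MANIO. It rose with a log2 fold change of 0.72 (SE 0.111, edgeR adjusted p = 9.48e-05). COL13A1, a transmembrane collagen found at cell junctions, gave 14.7, 14.9, 18.1 and 19.9 CPM in DMSO and 21.0, 21.4, 27.4 and 20.2 CPM in MANIO. Here the groups all but touched, and the log2 fold change was 0.41 (SE 0.113, edgeR adjusted p = 0.00683).

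COL18A1, the basement membrane collagen whose end fragment is endostatin, was the only one to fall among the 5 collagens with the most reads in DMSO. It gave 85.0, 101, 104 and 106 CPM in DMSO and 85.8, 79.0, 90.6 and 67.7 CPM in MANIO. DMSO replicate 1 lay among the treated cultures, so the groups overlapped, and the log2 fold change was -0.30 (SE 0.0887, edgeR adjusted p = 0.0118). Exons of SLC19A1, a folate carrier gene on the opposite strand, cover 16.4% of the exonic bases of COL18A1. Because the libraries are unstranded, reads of this overlap could be from either gene. The strand setting behind the counts was not given in the sources used here, so whether the COL18A1 count includes such reads is not known. SLC19A1 itself averaged 40.4 ± 5.20 CPM in DMSO and 38.6 ± 2.92 in MANIO (SD, n = 4 each; log2 fold change -0.06, edgeR adjusted p = 0.548). COL26A1 had 12 to 21 reads per DMSO library and 13, 13, 13 and 4 in MANIO, and did not pass (log2 fold change -0.69, SE 0.306, edgeR adjusted p = 0.0668).

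With the test set against a 1.2-fold limit instead of no change (glmTreat in edgeR), 13 collagens were higher and 3 lower, where 14.7% and 11.6% of all tested genes passed. The 13 include COL4A1, COL5A1 and COL5A3, which were tested through the group where they were high. COL12A1, COL13A1, COL6A1, COL6A2 and COL18A1 did not pass this test. The 3 that passed as lower were COL5A2, COL4A3 and COL4A4.

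The 20 members that were not tested held 0.143% of the collagen reads. COL10A1, COL19A1, COL22A1, COL6A5, COL6A6 and COL8A1 had 0 reads in 240821885 counts, which allows a level of up to 0.0125 CPM from 3 counts. A further 5 had 1 to 10 reads in all and 9 had more. The most reads were those of COL24A1, a fibrillar collagen of bone, with 8, 7, 8 and 13 in DMSO and 2, 4, 5 and 4 in MANIO. COL28A1 had 2, 3, 4 and 7 reads in DMSO and 0, 1, 1 and 0 in MANIO, and the membrane collagen COL25A1 had 3, 4, 5 and 4 and then 1, 0, 0 and 2. When all genes with a read were tested by edgeR, COL11A1 and COL4A2 were called higher and COL24A1, COL25A1 and COL28A1 lower. All 21 collagens called in the filtered test were called again, but on the same counts, so this is no separate support. The edgeR adjusted p of COL27A1 was 3.50e-51 against 4.10e-07 with the filter, at log2 fold changes of 1.09 and 1.11. For COL18A1 it was 8.00e-06 against 0.0118. Among the 23 it was larger only for COL5A3, COL20A1 and COL26A1. Calls gained without the filter are therefore weak evidence.

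Set against the length of their exons, the collagens of these cells covered a wide range. COL6A1 and COL6A2 were the most abundant in DMSO, at 19.5 ± 2.27 and 19.5 ± 1.86 CPM per kb (SD, n = 4), levels that did not differ beyond their spread. COL18A1 followed at 11.6 ± 1.14, COL12A1 at 6.61 ± 0.308 and COL9A3 at 5.20 ± 0.812 CPM per kb. COL4A5 at 2.89 ± 0.164 and COL13A1 at 2.87 ± 0.426 CPM per kb could not be told apart. COL4A5 stood at 2.89 CPM per kb beside 1.74 ± 0.0645 for COL4A4 and 1.27 ± 0.127 for COL4A3, and COL4A1 was the lowest tested collagen, at 0.00875 ± 0.00502. In MANIO COL9A3 reached 11.3 ± 1.73 CPM per kb and COL18A1 9.47 ± 1.17, the reverse of their order in DMSO, by a difference that was not tested. Exon lengths are merged over all annotated transcripts, which lowers the value of genes with many rarely used exons.

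**Figure D2:**
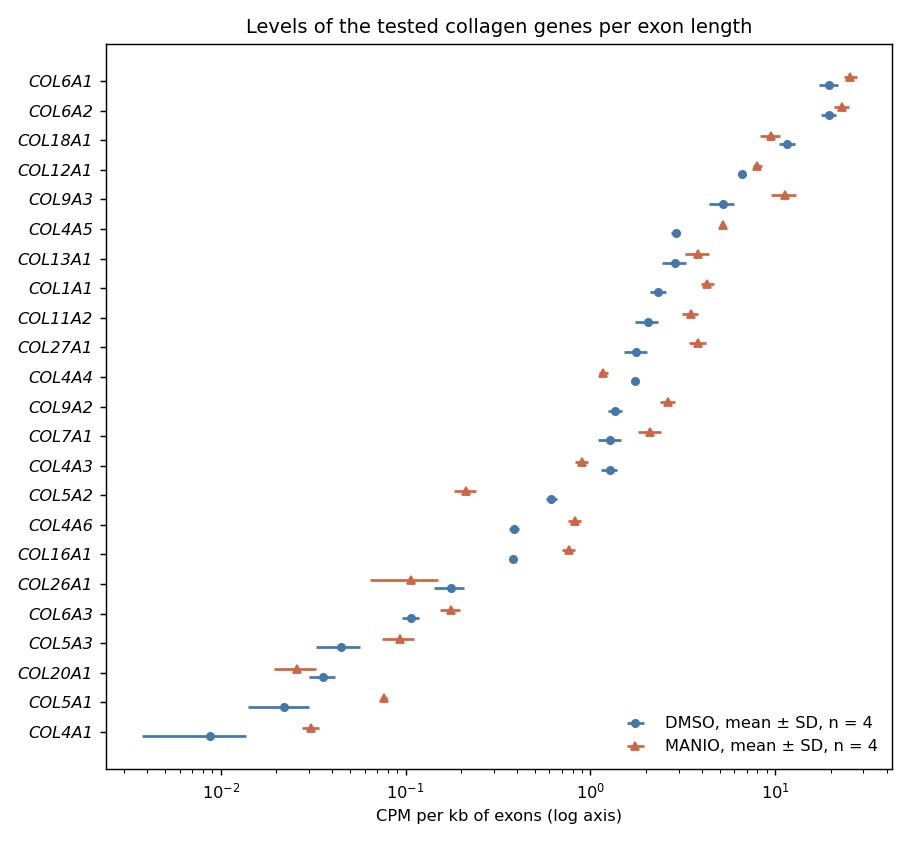
Mean level of each tested collagen gene in CPM per kb of exons on a log axis, with SD over 4 libraries, for DMSO (circles) and MANIO (triangles). The 2 main type VI genes lead in both groups, near 19.5 in DMSO, and COL4A1 is last.

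All collagen genes together took 594 ± 43.3 CPM in DMSO (536 to 632) and 776 ± 54.9 CPM in MANIO (724 to 852; SD, n = 4 each). The lowest treated library was above the highest control, and the lowest control was DMSO replicate 1. The 5 collagens with the most reads in a library took 71.6% ± 0.798 of the collagen reads in DMSO and 64.9% ± 0.889 in MANIO. COL6A1 and COL6A2 alone took 35.2% ± 1.18 and 33.5% ± 0.623. Collagen reads were thus spread over somewhat more genes in the treated libraries.

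Count ratios between partner chains were computed within each library, so that they need no scaling. Of 11 listed pairs, 6 had both genes tested, and an exact two-sided permutation test over the 70 assignments of libraries can give no p below 0.0286. The log2 ratio of COL5A1 to COL5A2 was -3.64, -3.99, -4.47 and -4.61 in DMSO and -0.69, -1.14, -0.94 and -0.68 in MANIO. COL5A1 thus went from 0.0552 to 0.550 reads per read of COL5A2, a log2 difference of 3.32 (exact permutation p = 0.0286, 0.0857 after Benjamini-Hochberg adjustment over the 6 pairs). This pair entered the test because COL5A1 met the read minimum through its MANIO libraries, so its p does not stand free of that choice. The ratio of COL6A1 to COL6A2 was also higher in all 4 MANIO libraries than in any DMSO library, but by 0.15 on the log2 scale (exact permutation p = 0.0286, adjusted 0.0857).

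The other 4 pairs had overlapping groups. COL4A5 to COL4A6 differed by -0.24 (exact permutation p = 0.0857, adjusted 0.171), and COL9A2 to COL9A3 by -0.16 (p = 0.143, adjusted 0.206). COL6A3 to COL6A1 differed by 0.32 (exact permutation p = 0.171, adjusted 0.206). COL4A3 to COL4A4 differed by 0.07 (exact permutation p = 0.571, adjusted 0.571). No pair passed after adjustment. With 2 of 6 pairs at the smallest p this design allows, 0.0857 is the lowest adjusted value those pairs can have.

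**Figure D3:**
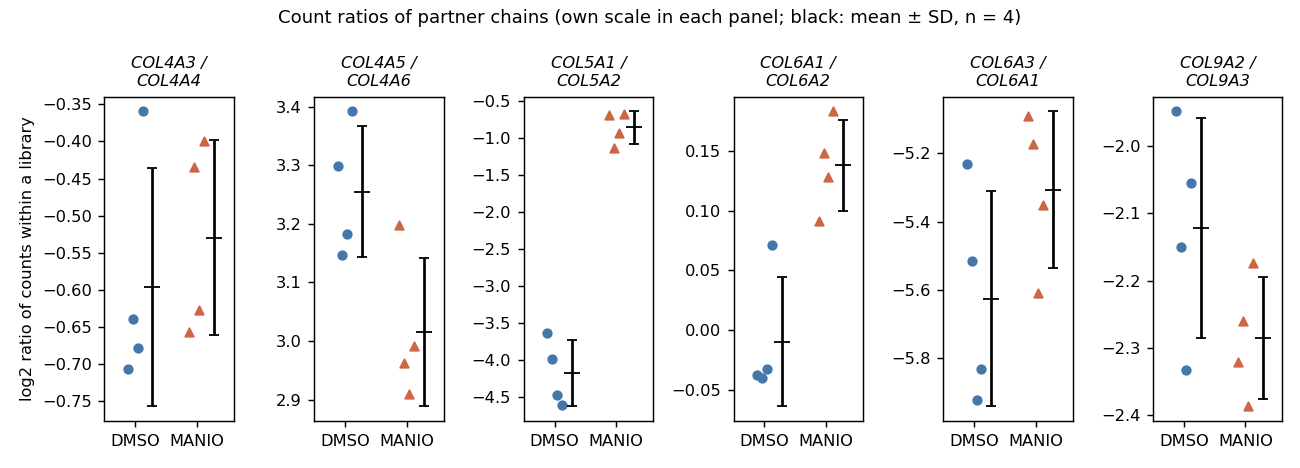
Log2 ratio of the counts of partner chains within each library for the 6 pairs with both genes tested, each panel on its own scale; black marks give mean and SD over 4 libraries. The COL5A1 to COL5A2 ratio moves by 3.32 and the COL6A1 to COL6A2 ratio by 0.15, and in the other 4 panels the groups overlap.

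Collagen genes are long, and over all tested genes the fold change varied with gene span, the distance from first to last annotated base. Of the 1521 tested genes of at least 150 kb, 53.9% were lower in MANIO and 15.6% higher, with a median log2 fold change of -0.24. In this class 10 collagens were tested: 6 rose, 3 fell (COL4A3, COL4A4 and COL5A2) and COL26A1 did not pass. COL4A6 (284 kb), COL4A5 (258 kb), COL5A1 (203 kb), COL13A1 (162 kb), COL4A1 (158 kb) and COL27A1 (157 kb) were those that rose. Of these, COL5A1 and COL4A1 were tested through the MANIO libraries, where they were high, so their rises do not stand free of that choice. Among genes under 50 kb, of which 30% were higher and 22.1% lower, 7 of 8 tested collagens rose and COL20A1 did not pass. Between 50 and 150 kb, 4 rose and COL18A1 fell, where 26.2% of all tested genes were higher and 29.3% lower. COL5A3 is among these 4 and was also tested through the group where it was high. Across the 23 collagens, log2 fold change and log10 span had a Pearson r of -0.17 and a Spearman rho of -0.07, given as a description, since the genes share libraries. The part of gene span in these changes was not tested.

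**Figure D4:**
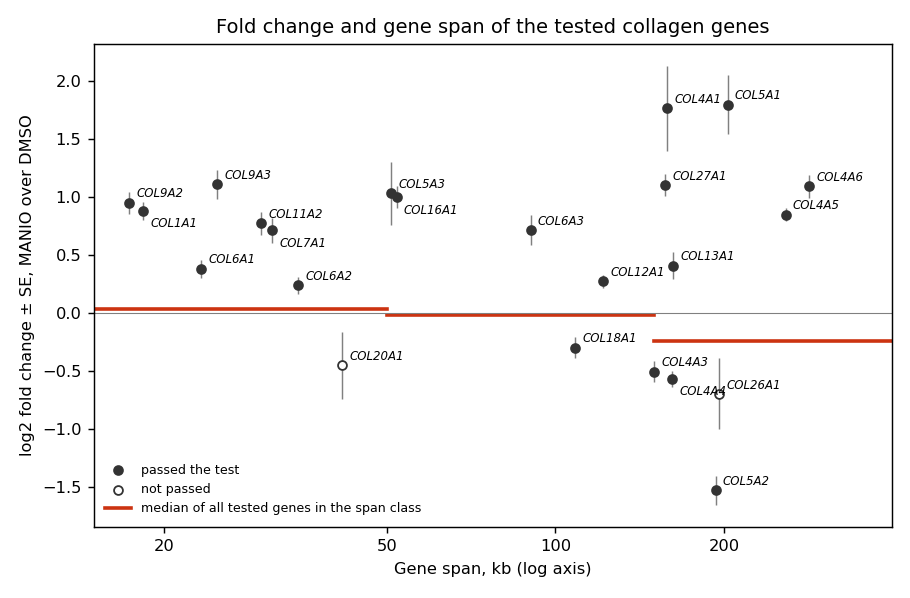
Log2 fold change with SE of each tested collagen gene against its span on a log axis; red lines give the median of all tested genes under 50 kb, from 50 to 150 kb and from 150 kb. Beyond 150 kb, where that median is -0.24, the collagens lie both far above and far below it.

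The machinery that makes, cuts, binds and clears collagen was read from 7 lists. A few of its genes are named beyond the rule given with the processing and were chosen after their values were seen: SERPINH1, P4HA1, P4HA2, NID1, HSPG2, ITGB1, DDR2 and TLL1. The counts that follow stand beside 27.8% higher, 26.8% lower and 54.6% called over all tested genes. Chains are first hydroxylated and folded in the endoplasmic reticulum. Of 20 tested genes for this step 9 fell and 5 rose (70% called), with a median log2 fold change of -0.20. PDIA3, a disulfide isomerase, averaged 623 ± 20 CPM in DMSO and 455 ± 19.2 in MANIO (log2 fold change -0.45, edgeR adjusted p = 3.78e-06). PPIB, the prolyl isomerase cyclophilin B, fell by 0.36 on the log2 scale, PLOD1, a lysyl hydroxylase, by 0.30, and P4HA1, a catalytic subunit of prolyl 4-hydroxylase, by 0.36. The groups of P4HA1 overlapped, at 57.8 to 85.6 CPM in DMSO and 52.5 to 67.1 in MANIO (edgeR adjusted p = 0.0258). Exons of other genes cover 27.2% of PPIB and 18.9% of PDIA3. CRTAP, part of the prolyl 3-hydroxylation complex, rose by 0.25 and SERPINH1, the collagen chaperone HSP47, by 0.26. P4HA2, the other main prolyl 4-hydroxylase subunit, averaged 41.7 ± 1.02 and 45.1 ± 2.35 CPM and did not pass (edgeR adjusted p = 0.101).

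Procollagen leaves the endoplasmic reticulum in enlarged COPII carriers. Of 15 tested genes of this route 6 fell and 2 rose, and the median was -0.05. The share called, 53.3%, was close to the 54.6% of all genes. SEC23A, SEC24D and SEC13, coat subunits, had log2 fold changes of -0.43, -0.40 and -0.28, and the outer coat gene SEC31A one of 0.40. Of 13 tested genes for proline, glycine and serine, which the collagen repeat draws on, 9 fell and 1 rose (76.9% called, against 26.8% lower over all genes), with a median of -0.30. PYCR1, the last enzyme of proline synthesis, averaged 345 ± 25.8 CPM in DMSO and 221 ± 19.9 in MANIO (log2 fold change -0.65, edgeR adjusted p = 2.20e-06), with 29.7% of its exonic bases shared with other genes. PHGDH, which opens serine synthesis, changed by -0.64, the neutral amino acid carrier SLC38A2 by -0.45 and SHMT1, which makes glycine from serine, by -0.35. PSPH, the last enzyme of serine synthesis, was the one that rose, by 0.24.

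Outside the cell, propeptides are cut and chains cross-linked. Of 13 tested genes for these steps 7 rose and 3 fell (76.9% called), and the median was 0.22. LOXL4, a lysyl oxidase-like cross-linking enzyme, averaged 2.42 ± 0.285 CPM in DMSO and 12.1 ± 0.612 in MANIO (log2 fold change 2.32, edgeR adjusted p = 1.11e-10). BMP1, which removes the C-terminal propeptide, rose by 0.59. The 3 that fell were LOXL2 (-0.67), ADAMTS2, which removes the N-terminal propeptide (-1.08), and TLL1, a relative of BMP1 (-1.15), each on the log2 scale.

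Of 12 tested collagen receptors 6 rose and 2 fell (66.7% called), and the median was 0.29. ITGA2, the alpha chain of an epithelial collagen integrin, averaged 79.1 ± 6.80 CPM in DMSO and 132 ± 7.97 in MANIO (log2 fold change 0.73, edgeR adjusted p = 2.95e-07). ADGRG1, an adhesion receptor that binds type III collagen, rose by 0.89, and the proteoglycans SDC1 and SDC4 rose by 0.66 and 0.59. The 2 that fell were ITGB1, the beta chain with which ITGA2 pairs (-0.22), and DDR2, a receptor kinase for fibrillar collagen (-0.71). Of 10 tested genes that degrade collagen or inhibit its degradation 4 rose and 2 fell, and the median was 0.13. The share called, 60%, was near that of all genes. MMP14, a membrane-bound collagenase, rose by 0.90, while PEPD, which splits proline dipeptides from broken-down collagen, fell by 0.56 and CTSB, a lysosomal protease, by 0.21. The rise of CTSK, a collagen-degrading protease, was 0.41 (edgeR adjusted p = 0.0276), and its call was lost in 5 of the 8 fits that leave out 1 library, with an adjusted p of up to 0.0868. The count of 4 was 1 without DMSO replicate 2 and 2 without DMSO replicate 3, DMSO replicate 4, MANIO replicate 2 or MANIO replicate 3.

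Of 25 other basement membrane and matrix genes 15 were tested. Of these 12 rose and 1 fell, against 27.8% higher over all genes, and the median was 0.64. LAMA3, the laminin alpha chain of epithelial anchoring sites, averaged 6.70 ± 0.370 CPM in DMSO and 33.2 ± 1.05 in MANIO (log2 fold change 2.31, edgeR adjusted p = 1.99e-12). Its partner chain LAMB3 rose by 1.00, the matrix glycoproteins THBS1 and ECM1 by 1.44 and 1.34, and HSPG2, the basement membrane proteoglycan perlecan, by 0.79. NID1, the nidogen that links laminin to type IV collagen, had 1, 1, 0 and 1 reads in DMSO and 24, 25, 20 and 30 in MANIO. It is among the 12, but was tested only through the group where it was high. FN1, fibronectin, was the one that fell, by 0.78.

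**Figure D5:**
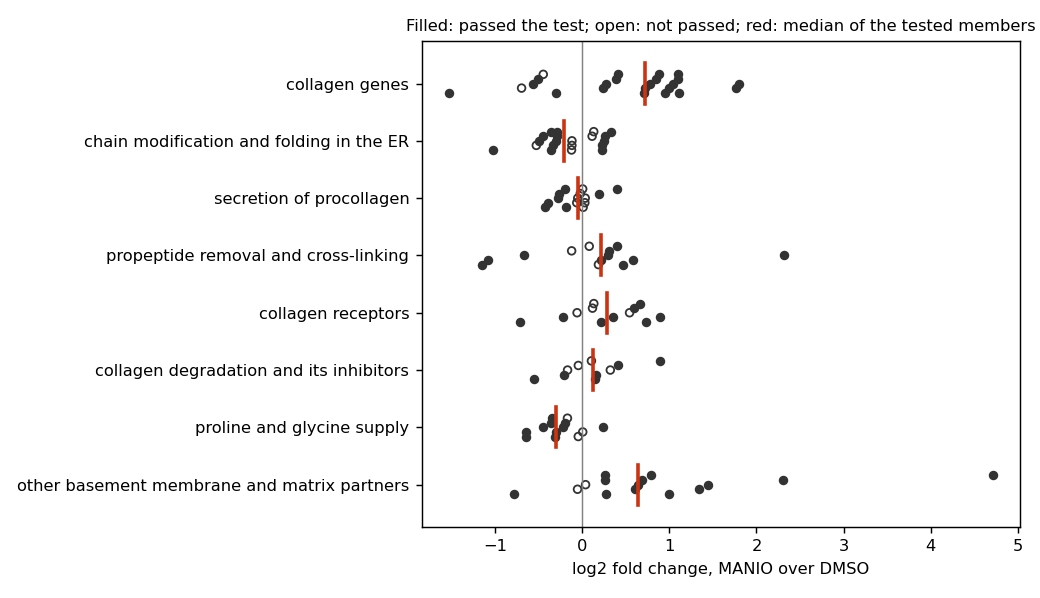
Log2 fold change, MANIO over DMSO, of each tested gene in the collagen genes and in 7 lists of genes that make, move, cut, bind or clear collagen; filled points passed the edgeR test, open points did not, and red bars are medians. The medians are 0.72 for the collagens and 0.64 for other matrix genes, and they lie below 0 for modification in the endoplasmic reticulum (-0.20), secretion (-0.05) and proline and glycine supply (-0.30).

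Markers of the cell types that make most collagen in tissue were checked in the same libraries. Of 15 fibroblast and smooth muscle markers 14 were in the table and 4 had enough reads: ACTA2, TAGLN and PDGFRB rose (log2 fold changes 1.89, 0.64 and 1.06) and RGS5 fell (-0.70). PDGFRB had 12, 11, 11 and 12 reads in DMSO and 29, 33, 31 and 13 in MANIO, and its groups overlapped in CPM. PDGFRA, PDPN, POSTN and LUM, used as fibroblast markers, had 0 reads in all libraries. The summed level of the list was 12.9 to 15.1 CPM in DMSO and 27.0 to 30.5 in MANIO, of which ACTA2 made up 5.05 ± 0.707 and 18.8 ± 1.22 CPM. Exons of other genes, among them the p53 target FAS, cover 30.1% of ACTA2. The part of these genes in the collagen changes was not tested.

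Of 15 epithelial markers 12 were tested, and VIL1, CDX1 and LGALS4 had too few reads. The list summed to 3958 to 4195 CPM in DMSO and 4714 to 5221 in MANIO. Most of the sum was KRT8, KRT18 and KRT19, which averaged 1618, 725 and 721 CPM in DMSO. KRT20 averaged 1.57 CPM in DMSO and 1.54 in MANIO and did not pass. Among the 12 tested, 5 rose and CLDN3 fell, or 50% called against 54.6% of all genes. The keratin genes KRT19, KRT18 and KRT8 rose by 0.44, 0.37 and 0.38 on the log2 scale and the cadherin gene CDH1 by 0.32. The fifth, CDX2, lost its call in 6 of the 8 fits that leave out 1 library (edgeR adjusted p of up to 0.170). EPCAM, which defines epithelium, averaged 293 ± 12.8 and 280 ± 20.8 CPM and did not pass (edgeR adjusted p = 0.389). Endothelial markers summed to 8.56 to 8.85 CPM in DMSO and 9.96 to 12.0 in MANIO. ESAM alone averaged 7.40 and 10.5 CPM of this, and 8 of the 10 markers had too few reads to test. Of the 2 tested, ESAM rose and VWF fell. VWF had 21, 18, 20 and 30 reads in DMSO and 14, 10, 5 and 9 in MANIO, so it was tested through the group where it was high. Leukocyte markers summed to 0.477 to 1.08 and 2.09 to 2.60 CPM. Most of the latter was the integrin gene ITGAM, at 0.460 ± 0.214 CPM in DMSO and 1.80 ± 0.109 in MANIO (log2 fold change 1.98, edgeR adjusted p = 1.12e-05). ITGAM missed the read minimum in DMSO replicate 3, with 5 reads, so its test also leaned on the MANIO libraries.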

How the data were processed

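RNA from 4 DMSO and 4 MANIO cultures of HCT116 p53+/+ was made into libraries with the TruSeq RNA v2 kit, which does not mark strand, and sequenced on an Illumina HiSeq, per the labels' protocols. The authors deposited raw read counts for 58302 Ensembl genes. FastQC 1.3, STAR 2.5.3a, HTSeq, DESeq2 and build GRCh38 stand in the submitters' processing notes without roles. The annotation release and strand setting behind the counts were not given in the sources used here. The total of 27945196 to 32509020 counts per library limits precision for genes with few reads. These totals exceed the raw read number that the labels state, for a reason the sources used here do not give, so a count may not be 1 sequenced fragment.

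Groups came from the sample labels. Counts were analysed in R 4.3.3 with edgeR 4.0.16: filterByExpr (10 counts at the median library, here 0.331 CPM, in at least 4 libraries), TMM scaling, and the robust quasi-likelihood F test of group alone, adjusted by Benjamini-Hochberg over 15712 genes. SE is the log2 fold change divided by the root of F, and CPM is TMM-scaled. Positions, exon lengths and exon overlaps came from GENCODE 29, which held all 43 members. Counts modelled on these libraries were simulated for 15569 genes, with 50 genes changed at each fold. Recovery was 22% of genes changed 1.2-fold, 82% of those changed 1.5-fold, 88% of those changed 2-fold and 100% of those changed 4-fold. Of 158 calls 7.59% were false. The simulation changed a far smaller share of genes than the 54.6% called in the data, so these shares need not hold for the data.

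Alternatives were DESeq2 1.42.0, other scalings and filters, a 1.2-fold limit, a replicate block and leaving out each library. Members, gene lists and tests were chosen with earlier results of these data known. Every tested collagen is described; from each pathway list the 4 genes with the smallest p are named, and any that is alone in its direction. The p-values measure the spread between these cultures only.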

Additional observations from a re-analysis of the deposited data

Results flagged for a closer look

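In 156 groups of 4 values, 13 had their highest or lowest value further from the rest than Dixon's 95% limit allows; chance gives about 1 in 20. Among collagens, MANIO replicate 3 was high for COL13A1 (27.4 CPM, others 20.2 to 21.4) and COL27A1 (61.5 CPM, others 49.8 to 50.9), and MANIO replicate 4 was low for COL26A1 (0.135 CPM, others 0.396 to 0.412). DMSO replicate 4 was high in the log2 ratio of COL6A1 to COL6A2 (0.0713, others -0.0397 to -0.0319). MANIO replicate 4 was also low for ADGRG1 (65.6 CPM, others 79.4 to 81.8), CDKN1A (1257 CPM, others 1445 to 1462) and PDGFRB (0.437 CPM, others 0.919 to 1.01). DMSO replicate 1 was high for PDIA3 (653 CPM, others 611 to 615), CTSB (279 CPM, others 267) and the mitochondrial share of counts (7.48%, others 4.82% to 5.21%). MANIO replicate 1 was high for CTSB (245 CPM, others 230 to 231), DMSO replicate 2 for SEC31A (102 CPM, others 98.4 to 98.5) and DMSO replicate 4 for CTSK (4.16 CPM, others 2.90 to 3.01).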

How the results depend on the processing

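The 23 tested collagens kept their direction under every alternative that gave a value. Of 340 single-gene values, 333 stayed on the same side of the threshold, 6 no longer passed and 1 newly passed. With no low-count filter 7 collagens were lower instead of 4, in the fit whose added calls are described above as weak evidence. Against a 1.2-fold limit, 2302 of all genes were higher and 1830 lower; for the lists the counts were 0 higher and 4 lower for modification in the endoplasmic reticulum, 1 and 2 for secretion, 0 and 3 for proline and glycine supply, 1 and 1 for degradation, 3 higher for cross-linking and 1 lower for receptors. Degradation had 2 higher with no filter and 1 to 3 when each library was left out. Same-numbered libraries deviated together with correlations of 0.04 to 0.16, not all above 0.1, so the numbers are taken as names only. With a replicate block 17 collagens were higher and 5 lower, COL26A1 joining (adjusted p = 0.0478), and 4491 and 4354 of all genes; not every library correlated best with its own number. For partner ratios, the paired sign-flip test over 4 pairs can give no p below 0.125. Depth limits COL4A1, COL5A1, COL5A3, COL20A1 and COL26A1, read at no more than 28 counts per library.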
